A study of Mus musculus with 18 samples.

Results

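The genes described here make, load, recycle, break down or sense acetylcholine, or mark the neurons that release it, and they were measured in the brains of mice given the dopaminergic toxin MPTP or saline. The set was chosen by name, with earlier results of these data known. It holds 8 of the 18194 genes on the array, measured by 11 of its 45101 probe sets. Bche had 3 probe sets, Chrm1 had 2, and Chat, Slc5a7, Slc18a3, Lhx8, Ache and Chrm4 had 1 each. The 6 groups were MPTP striatum, saline striatum, MPTP midbrain, saline midbrain, MPTP frontal cortex and saline frontal cortex, with 3 arrays in each. All animals were male C57BL/6J mice of 14 weeks. MPTP animals received 30 mg/kg intraperitoneally once a day for 5 days, saline animals received saline, and tissue was taken 4 days after the last injection. The labels call the replicates biological, and they do not say whether a replicate number marks the same animal in different regions.

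Acetylcholine is made from choline and acetyl-CoA by choline acetyltransferase (Chat), packed into vesicles by the vesicular transporter Slc18a3 and broken down by acetylcholinesterase (Ache). The choline that this frees is taken back into the terminal by the transporter Slc5a7. Butyrylcholinesterase (Bche) also hydrolyses acetylcholine and is found in glia, in blood plasma and in some neurons. In the striatum nearly all acetylcholine comes from sparse local interneurons, whose identity depends on the LIM homeodomain factor Lhx8, while the cortex and the midbrain are reached by axons of cholinergic cell bodies that lie elsewhere, apart from nuclei in the brainstem. The muscarinic receptors Chrm1, coupled to Gq, and Chrm4, coupled to Gi, are carried by the medium spiny neurons of the striatum, and Chrm1 also by cortical pyramidal neurons. Striatal dopamine, which MPTP depletes, normally restrains the cholinergic interneurons through D2 receptors.

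Values are the deposited log2 signals of a probe set, so that a difference of 1 is a 2-fold difference. A level is comparable between arrays for 1 probe set, not between probe sets. Genes entered the test when at least 1 regional mean came to 5.18 or more, which is the median of the deposited values. This filter value is a convention and not a measured background. The 11741 genes that passed were fitted together with limma, and a gene was called at a Benjamini-Hochberg adjusted p under 0.05. Each SE, interval and p rests on a spread estimate of the gene that all 6 groups share, not on the compared arrays alone. Of the 8 genes 6 were tested. Chat and Chrm4 stayed below the filter value in every region. Slc5a7, Slc18a3 and Lhx8 passed only through the striatum.

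Within groups, array-to-array correlations ran from 0.991 to 0.997, and no 2 arrays held identical values. The interquartile range of an array's values, a measure of its contrast, was lowest in saline striatum replicate 1, saline midbrain replicate 2 and saline frontal cortex replicate 2, at 3.40, 3.37 and 3.38. The regions carried their markers: the log2 summed signal of the 10 medium spiny neuron markers was 14.85 to 15.02 on striatal arrays and at most 11.41 elsewhere. Of the genes that mark dopamine neurons, Th, the rate-limiting enzyme of dopamine synthesis, measured 8.09, 8.04 and 7.94 in MPTP midbrain, against 8.97, 8.92 and 8.64 in saline midbrain. All 3 MPTP arrays were below all 3 saline arrays, but the difference of -0.82 was not called (adjusted p = 0.133). Groups did not overlap, in either direction, for 16.3% of all tested genes in midbrain. Slc6a3, the dopamine transporter, measured 9.029, 8.997 and 9.061 in MPTP midbrain, against 9.67, 9.38 and 9.15 in saline midbrain (difference -0.37, adjusted p = 0.208). Of the 8 dopamine neuron markers 6 were tested and none was called in midbrain, where 2.54% of all tested genes were called. Their median difference was -0.20, against 0.03 over all tested genes. The summed signal of the 8 markers, 12.08 to 12.20 in MPTP midbrain and 12.08 to 12.34 in saline midbrain, overlapped.

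The choline acetyltransferase probe set (1440070_at) gave no usable measure of the cholinergic neuron. Chat measured 4.06, 4.24 and 4.06 in MPTP striatum, against 4.09, 3.86 and 4.14 in saline striatum. The values of both groups overlapped, and over all 18 arrays and 3 regions they stayed between 3.76 and 4.24, below the filter value on every one. The saline striatum minus saline frontal cortex difference was 0.14 (SE 0.12, adjusted p = 0.411 in the fit without the filter), so the defining enzyme did not separate the striatum, which holds cholinergic cell bodies, from the cortex. The other neuronal genes of the set, Slc5a7, Slc18a3 and Lhx8, did differ between these regions.

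The 2 cholinergic transporters and Lhx8 had their highest values in striatum, and in midbrain and frontal cortex they lay below the filter value on every array of either treatment. Because they entered the test through the striatum, their striatal differences are given with the p of the fit of all 18194 genes, which used no filter. For Slc5a7 (1421428_at) the saline values were 5.18, 5.28 and 5.35 in striatum, 3.86, 3.75 and 4.03 in midbrain, and 3.23, 3.27 and 3.52 in frontal cortex. Every striatal array was above every array of the other regions. Saline striatum minus saline frontal cortex was 1.93 (SE 0.16, adjusted p = 5.73e-10), and saline striatum minus saline midbrain was 1.39 (adjusted p = 1.06e-07). Of each of these differences only 0.092 lay above the filter value.

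Slc18a3 (1422203_at) followed the same order, with 6.02, 6.10 and 5.98 in saline striatum, 4.79, 4.54 and 5.17 in saline midbrain, and 4.12, 4.44 and 4.25 in saline frontal cortex. The striatal values stood apart from the rest, and the lowest midbrain value was above the highest cortical one. The saline striatum minus saline frontal cortex difference was 1.76 (SE 0.16, adjusted p = 2.22e-09), and saline striatum minus saline midbrain was 1.20 (adjusted p = 9.04e-07). The part of each above the filter value was 0.85. Between midbrain and frontal cortex the difference was 0.56 for Slc18a3 (adjusted p = 0.00612) and 0.54 for Slc5a7 (adjusted p = 0.0142), both among values below the filter value, and no fold is given for them. Both of these calls were lost without saline midbrain replicate 3 (adjusted p = 0.0607 for Slc18a3 and 0.0618 for Slc5a7), and that of Slc5a7 also without saline frontal cortex replicate 1 (adjusted p = 0.0529). Slc18a3 lies inside the span of the Chat gene on chromosome 14 in GRCm38.p6, the cholinergic gene locus, which is why its promoter is shown. The 250 bases before its annotated start, on the minus strand at chr14:32464851-32465100 (RefSeq, GRCm38.p6, 5′ to 3′), hold 2 matches to the GC box GGGCGG, searched on both strands and marked in capitals:

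Slc18a3: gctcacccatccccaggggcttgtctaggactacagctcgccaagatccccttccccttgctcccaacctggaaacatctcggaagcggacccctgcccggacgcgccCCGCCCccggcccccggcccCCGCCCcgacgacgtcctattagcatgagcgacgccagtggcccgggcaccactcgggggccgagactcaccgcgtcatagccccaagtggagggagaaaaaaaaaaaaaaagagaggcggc

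Both matches read as the reverse complement of the motif, and they do not overlap. The GC box is the binding sequence of Sp family factors, and 32.7% of all 32851 promoter windows of that length held at least 1. GC content was 66.0% in this window, against a median of 52.4% over all windows.

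Lhx8 (1427300_at), the transcription factor, measured 6.25, 6.54 and 6.31 in saline striatum, 3.69, 3.51 and 3.62 in saline midbrain, and 3.52, 3.57 and 3.48 in saline frontal cortex. The striatal arrays were clear of all others, while midbrain and cortex overlapped and did not differ beyond their spread (difference 0.08, adjusted p = 0.722). Saline striatum exceeded saline frontal cortex by 2.84 (SE 0.16, adjusted p = 2.42e-13) and saline midbrain by 2.76 (adjusted p = 1.68e-13). The part of each above the filter value was 1.19.

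None of these 3 genes was called with MPTP in any region. In midbrain, among values below the filter value, Lhx8 differed by -0.25 (adjusted p = 0.483) and its groups did not overlap, as for 16.3% of tested genes. Slc18a3 differed there by -0.25 (95% interval -0.59 to 0.09) with overlap, and Slc5a7 by -0.02. The frontal cortex differences were -0.07, -0.12 and -0.11 for Lhx8, Slc18a3 and Slc5a7. In MPTP striatum Slc5a7 measured 6.04, 5.26 and 5.23, against the 5.18, 5.28 and 5.35 of saline striatum given above. The mean difference of 0.24 (SE 0.18, 95% interval -0.13 to 0.61, adjusted p = 0.541) was carried by MPTP replicate 1, and it was -0.03 without that array. On the same array, MPTP striatum replicate 1, the cortical glutamatergic marker Slc17a7 was lowest, at 5.04 against 7.45 and 8.002 on the other MPTP arrays and 7.50, 8.04 and 8.61 in saline striatum. The summed signal of the 9 cortical markers ran from 10.77 to 11.38 in MPTP striatum and from 11.18 to 11.56 in saline striatum; their part in the Slc5a7 value was not tested.

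Slc18a3 measured 6.22, 5.92 and 6.07 in MPTP striatum, and these values overlapped those of saline striatum (difference 0.04, SE 0.17, 95% interval -0.30 to 0.38). Lhx8 measured 6.78, 6.14 and 6.93 in MPTP striatum: 2 arrays lay above every saline array and 1 below every saline array. Its difference was 0.25 (SE 0.17, 95% interval -0.10 to 0.60, adjusted p = 0.496), and 0.49 without MPTP striatum replicate 2 (adjusted p = 0.112). A call that was missed does not show these genes to be unaltered. The intervals use the spread shared by all 6 groups. In MPTP striatum the standard deviation (SD) was 0.46 for Slc5a7, 0.42 for Lhx8 and 0.15 for Slc18a3. In midbrain and frontal cortex it was at most 0.23, 0.27 and 0.32. For Slc5a7 and Lhx8 the interval ends therefore do not bound the changes that the striatal arrays alone could have left unseen.

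**Figure D1:**
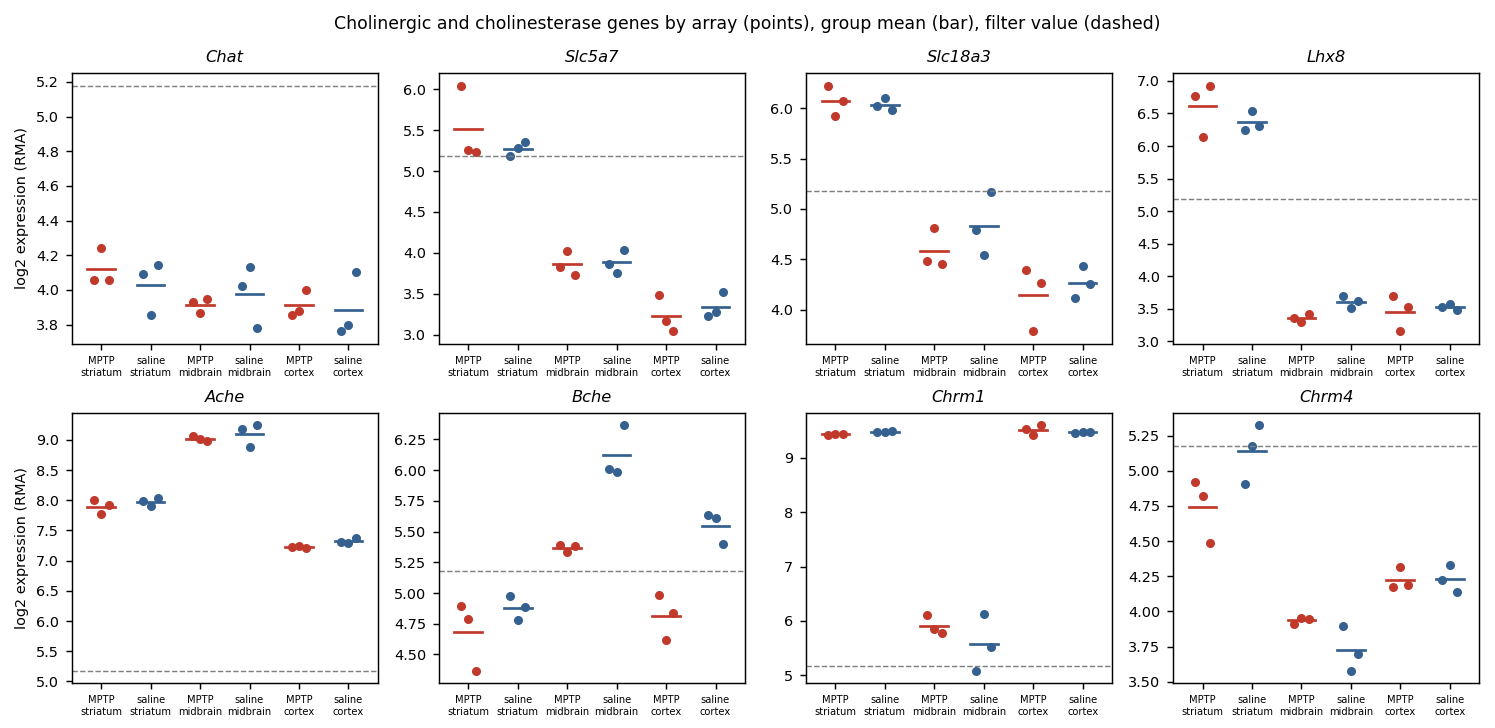
Log2 signal of the reported probe set of each of the 8 genes on every array, by region and treatment, with MPTP left of saline. Points are single arrays and the horizontal bars are group means of 3 arrays; the striatal groups stand apart for Slc5a7, Slc18a3 and Lhx8, and MPTP lies below saline for Bche in midbrain and frontal cortex.

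Of the 2 cholinesterases, Bche was called lower in MPTP midbrain and in MPTP frontal cortex, through 1 of its probe sets, and Ache was called in no region; the difference between the 2 genes was not tested. Of the 6 tested genes 1 was called in midbrain, against 2.54% of all tested genes, and 1 in frontal cortex, against 0.0681%, in each case Bche. None was called in striatum, against 2.1% of all tested genes. In the mean over the 3 regions 1 of 6 was called, again Bche, against 9.21% of all tested genes. Since the set was chosen with earlier results of these data known, these counts support nothing about the set.

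Bche is reported by the probe set 1436098_at, which had the highest mean signal of its 3 probe sets. A higher signal does not show a better measure of the gene. In midbrain it gave 5.39, 5.33 and 5.38 in MPTP mice, against 6.01, 5.99 and 6.37 in saline mice. All MPTP arrays were below all saline arrays, which held for 16.3% of all tested genes in midbrain in either direction. The difference was -0.75 (SE 0.14, 95% interval -1.05 to -0.46), a 1.69-fold lower level (adjusted p = 0.00944). It was the 6th largest of 45 called decreases in midbrain, where 0.383% of tested genes were called lower. The call was lost without MPTP midbrain replicate 3 (difference -0.76, adjusted p = 0.0836) and without saline midbrain replicate 3 (difference -0.63, adjusted p = 0.0563).

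In frontal cortex Bche gave 4.98, 4.62 and 4.84 in MPTP mice, against 5.64, 5.61 and 5.40 in saline mice. Again the groups did not overlap, as for 13.3% of tested genes, and here all MPTP values fell below the filter value. The measured difference was -0.74 (SE 0.14, 95% interval -1.03 to -0.44, adjusted p = 0.0487), a 1.66-fold lower level, of which 0.37 lay above the filter value. Bche was 1 of only 2 genes, or 0.017% of those tested, called lower in frontal cortex. This call was marginal: leaving out any 1 cortical array ended it (differences -0.64 to -0.82, adjusted p = 0.0745 to 0.256), as did 6 of the other settings tried, 1 of which left Bche untested.

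In striatum Bche gave 4.89, 4.79 and 4.37 in MPTP mice, against 4.97, 4.78 and 4.88 in saline mice. The groups overlapped and every value was below the filter value (difference -0.20, SE 0.14, adjusted p = 0.531). Averaged over the 3 regions the difference was -0.56 (SE 0.083, adjusted p = 2.58e-04), and 2.5% of tested genes were called lower in that mean. The responses of the regions were not shown to differ: 0 of the 6 tested genes was called in the difference of responses of striatum and cortex, of midbrain and striatum, or of midbrain and cortex, against 0.0596%, 0.0681% and 0% of all tested genes. The striatal response minus the cortical one was 0.54 (SE 0.20, adjusted p = 0.566), the midbrain response minus the striatal one was -0.56 (adjusted p = 0.682), and the midbrain response minus the cortical one was -0.02 (95% interval -0.44 to 0.40).

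The other Bche probe sets did not carry the call. Both lay below the filter value on all 18 arrays. The probe set 1421218_at gave MPTP minus saline differences of -0.10 in midbrain, -0.23 in frontal cortex and -0.18 in striatum, and 1437863_at gave -0.16, -0.14 and 0.06. Of these 6 differences 5 were negative, as in the reported probe set, and none was called. The result is thus that of 1 probe set, and with all probe sets of a gene averaged Bche did not pass the filter.

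**Figure D2:**
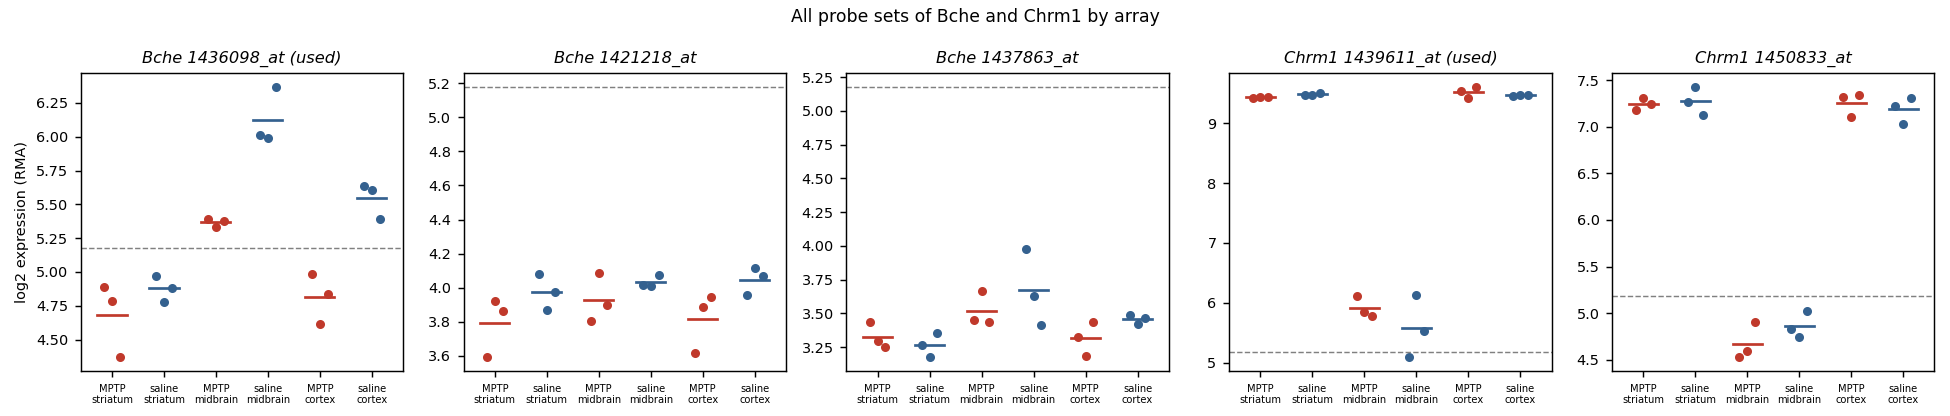
Log2 signal of the 3 Bche and the 2 Chrm1 probe sets on every array, with MPTP left of saline within each region and bars at the means of 3 arrays and a dashed line at the filter value of 5.18. Of the Bche probe sets only 1436098_at rises above that line, and the 2 Chrm1 probe sets share their regional order.

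In a bulk tissue sample, fewer cells of a type and less RNA per cell cannot be told apart, and Bche is made by several cell types. Among glial markers in midbrain, 3 of 9 astrocyte markers were called higher with MPTP (Gja1, Slc1a2 and Glul). Of the oligodendrocyte markers 1 of 9 was called lower (Opalin), and of the microglia markers 1 of 8 was called higher. Of all tested genes 2.54% were called in midbrain. In frontal cortex no marker of these 3 lists was called, against 0.0681% of all tested genes. The summed log2 signal of the astrocyte markers in midbrain was 14.18 to 14.22 in MPTP mice and 13.88 to 14.08 in saline mice. That of the microglia markers was 11.36 to 11.60 in MPTP mice and 11.14 to 11.30 in saline mice. That of the oligodendrocyte markers, 14.88 to 14.92 in MPTP mice and 14.77 to 14.92 in saline mice, overlapped. Of 6 markers of the choroid plexus, the tissue that secretes cerebrospinal fluid, 2 were tested. None was called in any single region, against at most 2.54% of all tested genes. In the mean over the 3 regions 1 of the 2 was called lower, against 2.5% of all tested genes. The summed signal of the 6 markers was 7.06 to 8.08 in MPTP midbrain and 7.85 to 8.58 in saline midbrain. It was 6.52 to 6.59 in MPTP frontal cortex and 6.64 to 7.23 in saline frontal cortex. In striatum it was 8.07 to 10.34 in MPTP mice and 10.29 to 10.71 in saline mice. The part of these cells in the Bche differences was not tested. With the 3 low-contrast saline arrays named above left out, a choice made after seeing the data, Bche was no longer called in frontal cortex (adjusted p = 0.259).

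The promoter of Bche is shown because it is the gene that was called. Its window runs over chr3:73708416-73708665 on the minus strand, with 2 overlapping GC box matches in capitals at its end, again as the reverse complement:

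Bche: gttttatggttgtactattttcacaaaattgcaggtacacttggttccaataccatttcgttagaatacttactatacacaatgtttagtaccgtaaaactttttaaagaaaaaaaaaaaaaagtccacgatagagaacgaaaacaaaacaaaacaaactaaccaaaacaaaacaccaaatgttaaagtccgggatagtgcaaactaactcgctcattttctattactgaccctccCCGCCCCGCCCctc

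Outside that end the window is rich in A and T, and its GC content of 35.6% is the lowest among the 7 genes with a promoter sequence. Ache is shown beside it as the other cholinesterase. Its window runs over chr5:137288004-137288253 on the plus strand, and the capitals mark 2 matches to GCGNGGGCG, the binding letters of the EGR family of activity-regulated factors:

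Ache: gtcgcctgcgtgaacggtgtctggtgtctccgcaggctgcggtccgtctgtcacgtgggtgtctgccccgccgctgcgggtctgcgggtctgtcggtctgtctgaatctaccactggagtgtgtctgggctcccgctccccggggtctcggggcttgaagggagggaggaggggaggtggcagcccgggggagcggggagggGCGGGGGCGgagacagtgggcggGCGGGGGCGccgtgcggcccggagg

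This motif was present in 4.7% of all promoter windows, and its matches in Ache overlap some of the 4 GC box matches of the same window. Its GC content was 73.6%, the highest of the 7. The LIM homeodomain core TAATTA, present in 4.84% of all windows, was found in none of the 7. A match is a description of the letters, and no match says only that they are not in this window. Chrm1 had no entry.

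Ache, the main enzyme of acetylcholine breakdown, is made by many neurons besides cholinergic ones. It was highest in midbrain. In saline mice it measured 7.98, 7.91 and 8.04 in striatum, 9.18, 8.88 and 9.25 in midbrain, and 7.30, 7.30 and 7.37 in frontal cortex. No 2 regions overlapped. Saline midbrain exceeded saline frontal cortex by 1.78 (SE 0.090, 3.42-fold, adjusted p = 3.59e-14), and saline striatum exceeded saline frontal cortex by 0.65 (adjusted p = 1.92e-06). Saline striatum minus saline midbrain was -1.12 (adjusted p = 1.39e-10).

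With MPTP, Ache measured 7.999, 7.77 and 7.92 in striatum, 9.07, 9.02 and 8.98 in midbrain, and 7.23, 7.25 and 7.22 in frontal cortex. In striatum and midbrain these values overlapped those of the saline mice. In cortex all 3 MPTP arrays lay just below all 3 saline arrays, where 13.3% of all tested genes did not overlap in either direction. The MPTP minus saline differences were -0.08 in striatum, -0.08 in midbrain and -0.09 in frontal cortex (SE 0.090 each, adjusted p = 0.701, 0.722 and 0.927), and the mean over regions was -0.08 (95% interval -0.19 to 0.02, adjusted p = 0.326). A second quantile normalization turned this mean into -0.12 with an adjusted p of 0.0419. In midbrain the difference was -0.19 without saline midbrain replicate 2 (adjusted p = 0.231).

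Bche followed another regional order than Ache in saline mice, with midbrain above frontal cortex and striatum last. Saline midbrain exceeded saline frontal cortex by 0.58 (SE 0.14, adjusted p = 0.00166). This difference was -0.01 (SE 0.11) in the probe set 1421218_at and 0.21 (SE 0.11) in 1437863_at, both below the filter value. Saline striatum minus saline frontal cortex was -0.67 (adjusted p = 4.80e-04), with all striatal values below the filter value.

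**Figure D3:**
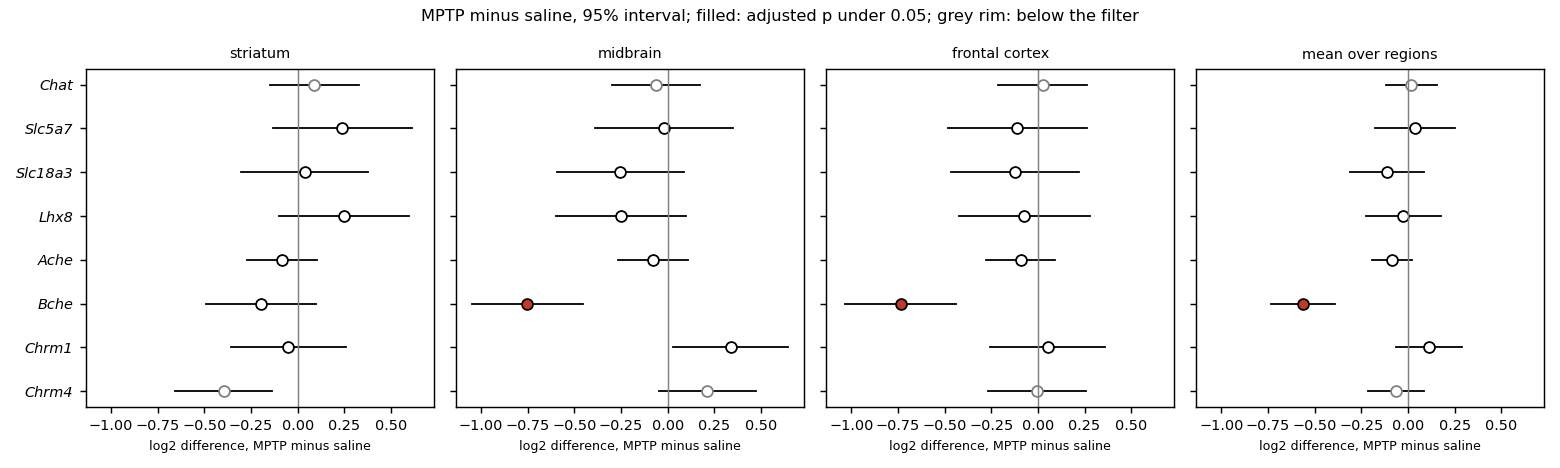
MPTP minus saline log2 differences of the 8 genes in striatum, midbrain and frontal cortex and averaged over the 3 regions, with 95% intervals from limma. Filled points have an adjusted p under 0.05, which holds for Bche in midbrain, frontal cortex and the mean; points with a grey rim are the genes below the filter, from the fit without it.

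Of the muscarinic receptors, Chrm1 was a forebrain gene on these arrays, and it was called in no MPTP contrast. Chrm4 stayed below the filter value in every region, so it could not be called. Chrm1 (1439611_at) measured 9.48, 9.48 and 9.50 in saline striatum, 5.09, 6.13 and 5.53 in saline midbrain, and 9.45, 9.48 and 9.48 in saline frontal cortex. Striatum and cortex lay together, far above midbrain. Saline striatum exceeded saline midbrain by 3.91 (SE 0.15, adjusted p = 1.31e-16), and saline midbrain minus saline frontal cortex was -3.89, a 14.8-fold difference (adjusted p = 2.74e-16). The second probe set of Chrm1, 1450833_at, put these differences at 2.41 and -2.32, with the same direction and its midbrain values below the filter value. Between saline striatum and saline frontal cortex the difference was 0.02, with a 95% interval of -0.29 to 0.33 (adjusted p = 0.943).

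With MPTP Chrm1 measured 9.42, 9.45 and 9.45 in striatum and 9.54, 9.42 and 9.61 in frontal cortex. The striatal values all lay just under those of saline mice, with a difference of -0.05 (SE 0.15, adjusted p = 0.913). The SD of the striatal arrays was 0.017 with MPTP and 0.015 with saline, far below this shared SE. Groups did not overlap, in either direction, for 23.2% of all tested genes in striatum. The cortical difference was 0.05 (adjusted p = 0.974). In midbrain Chrm1 measured 6.12, 5.85 and 5.78 in MPTP mice, against the 5.09, 6.13 and 5.53 of saline mice. The groups overlapped through 1 high saline array, replicate 2, and the difference was 0.34 (SE 0.15, 95% interval 0.03 to 0.65, adjusted p = 0.253). Without that array it was 0.61 and called (adjusted p = 0.0150), and without saline midbrain replicate 1 it was 0.09. The SE of 0.15 comes from the spread shared by all 6 groups and is not that of the midbrain arrays. Chrm1 had an SD of 0.52 in saline midbrain and 0.18 in MPTP midbrain, against at most 0.09 in the striatal and cortical groups. The second Chrm1 probe set, 1450833_at, gave -0.19 in midbrain.

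Chrm4 was tested only in the fit without the filter. It measured 4.92, 4.82 and 4.48 in MPTP striatum, against 4.91, 5.18 and 5.33 in saline striatum. The highest MPTP array was level with the lowest saline array, and the difference was -0.40 (SE 0.13, adjusted p = 0.149). In midbrain it measured 3.91, 3.95 and 3.95 in MPTP mice and 3.90, 3.58 and 3.70 in saline mice (difference 0.21, adjusted p = 0.496). In saline mice striatum exceeded frontal cortex by 0.91 (adjusted p = 2.58e-06) and midbrain by 1.41 (adjusted p = 9.28e-10), although only 1 saline striatal array passed the filter value.

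Set side by side, the regional contrasts in saline mice called 5 of the 6 tested genes between striatum and frontal cortex, 5 between midbrain and frontal cortex and 6 between striatum and midbrain. These contrasts called 44%, 51.3% and 58.2% of all tested genes, and the groups did not overlap for 56.1%, 52.2% and 59.6%. Since 3 of the genes passed the filter only through the striatum, these counts support nothing about the set, and the contrasts share their saline arrays.

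**Figure D4:**
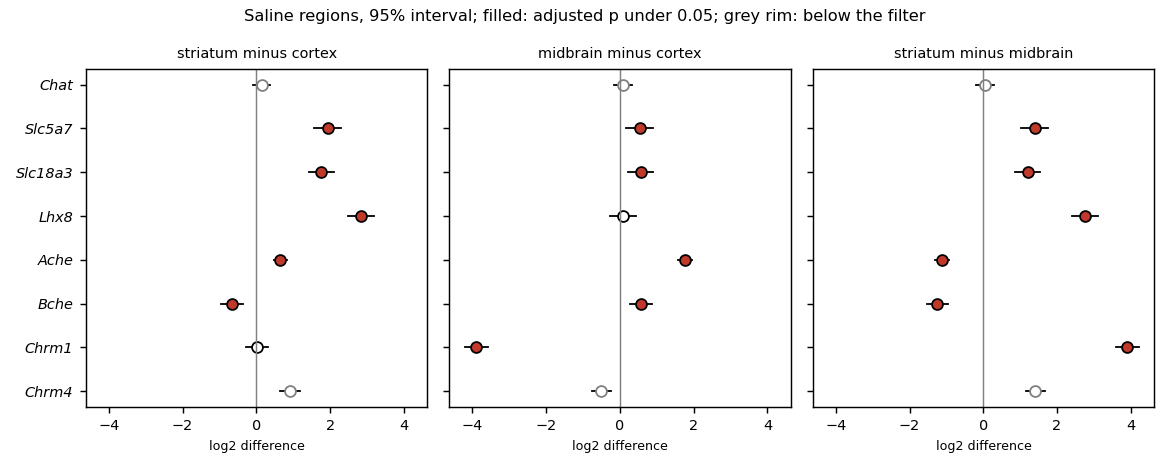
Log2 differences between regions in saline mice for the 8 genes, with 95% intervals: striatum minus frontal cortex, midbrain minus frontal cortex, and striatum minus midbrain. Filled points have an adjusted p under 0.05 among the tested genes, and a grey rim marks Chat and Chrm4, below the filter and never filled; Slc5a7, Slc18a3 and Lhx8 lie to the right in both striatal panels, and Chrm1 lies at 0 only between striatum and frontal cortex.

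Likeness of pattern was measured as the root mean square difference between 6 group means, each gene centred on its own mean, over all tested genes. The nearest gene to Slc5a7 was Slc18a3 (0.14), followed by Crybg3 (0.155) and Rcn1 (0.158). For Slc18a3 the nearest were Vrk1 (0.114), Itgb1bp1 (0.125) and Tbc1d16 (0.138), so the relation was not mutual among the first 3. The genes nearest to Lhx8 were Adcy5 (0.111), the adenylyl cyclase of medium spiny neurons, Foxo1 (0.143) and Pde1b (0.159). Ache was nearest to Ntn1 (0.0688), the axon guidance factor netrin-1, Gng11 (0.0699) and Amotl1 (0.0734). Bche was nearest to Shh (0.157), a secreted patterning factor, Ndnf (0.191) and Pigz (0.208), and Chrm1 was nearest to Ctxn1 (0.202), Ankrd33b (0.216) and Icam5 (0.22).

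Beyond the 8 genes, MPTP called 1 gene of choline supply in midbrain. In the list of nicotinic receptor chaperones and modulators it called 1 gene in midbrain, the adhesion protein Nptn, and 2 modulators in striatum. All tested genes were called at 2.54% in midbrain, 2.1% in striatum, 0.0681% in frontal cortex and 9.21% in the mean over regions. Of 13 markers of cholinergic neurons on the array, Lhx8 included, 7 were tested, none was called in any MPTP contrast, and the median difference in striatum was 0.17, against -0.03 over all tested genes. Isl1, a LIM homeodomain partner of Lhx8, measured 7.03, 6.55 and 6.68 in MPTP striatum, against 7.12, 6.95 and 6.63 in saline striatum (difference -0.15, adjusted p = 0.656). Its groups overlapped. In saline striatum against saline frontal cortex, where 44% of all tested genes were called, 5 of the 7 were higher, Lhx8, Isl1, Ecel1, Tacr3 and Ngfr, and 1 was lower, Ntrk2 (-0.35, adjusted p = 3.42e-04). Isl1 was higher in striatum by 3.13, and Ecel1, an endopeptidase-like protein listed with these neurons, by 2.99. A gene could enter the test through 1 region alone, so the count and these differences support nothing about the list.

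Of the genes that supply choline and acetyl groups, 18 of 22 were tested and 1 was called in a single region, in midbrain, against 2.54% of all tested genes. Gdpd5, a glycerophosphodiesterase that frees choline from glycerophosphocholine, measured 6.67, 6.75 and 6.40 in MPTP midbrain, against 7.19, 6.92 and 7.26 in saline midbrain. The groups did not overlap, as for 16.3% of all tested genes in midbrain, and the difference was -0.52 (SE 0.13, adjusted p = 0.0342). The Gdpd5 call was lost without MPTP midbrain replicate 1 or 3 or saline midbrain replicate 3 (adjusted p = 0.0723, 0.253 and 0.141). In the mean over regions 1 gene of the list was lower and 1 higher, against 9.21% of all tested genes. Gdpd5 was the lower one, at -0.25 (adjusted p = 0.0358), a call lost in 11 of the 18 fits that left out 1 array. The choline transporter-like protein Slc44a1 rose by 0.18 in the mean over regions (SE 0.049, adjusted p = 0.0220), while its 3 other probe sets gave -0.063, 0.052 and -0.0060. This call was lost without saline frontal cortex replicate 2 (adjusted p = 0.0505).

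The list of chaperones and lynx-family modulators of nicotinic receptors also held the adhesion protein Nptn. Of its 13 genes 12 were tested. In striatum 2 were called lower and in midbrain 1, Nptn, was called higher, against 2.1% and 2.54% of all tested genes called. Lypd6, a modulator of the lynx family, measured 7.12, 7.22 and 7.20 in MPTP striatum, against 7.68, 7.56 and 7.80 in saline striatum. Lynx1, which damps nicotinic receptor responses, measured 9.62, 9.51 and 9.59 in MPTP striatum, against 9.97, 9.84 and 9.86 in saline striatum. Neither gene's groups overlapped, as for 23.2% of tested genes in striatum. Lypd6 fell by 0.50 (SE 0.12, adjusted p = 0.0236) and Lynx1 fell by 0.32 (SE 0.075, adjusted p = 0.0255) on the log2 scale. The second Lynx1 probe set gave -0.04, and leaving out any 1 striatal array ended the Lynx1 call (adjusted p = 0.0612 to 0.115). The Lypd6 call was lost when any of MPTP striatum replicates 1 and 3 and saline striatum replicates 1 and 3 was left out (adjusted p up to 0.116).

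Nptn, neuroplastin, an adhesion protein of the same list, measured 11.002, 11.18 and 11.23 in MPTP midbrain, against 10.91, 10.63 and 10.54 in saline midbrain. All MPTP arrays were above all saline arrays, by 0.44 in the mean (SE 0.088, adjusted p = 0.0104). Groups did not overlap, in either direction, for 16.3% of all tested genes in midbrain. The midbrain call of Nptn was lost without MPTP midbrain replicate 3 (adjusted p = 0.107) and without saline midbrain replicate 3 (adjusted p = 0.0625). Nptn was also called in the mean over regions (0.22, adjusted p = 0.00705).

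Of the 15 nicotinic subunits only 6 were tested, namely Chrna3, Chrna4, Chrna6, Chrna7, Chrnb2 and Chrnd, and none was called in any MPTP contrast. Of all tested genes 0.0681% were called in frontal cortex, 2.1% in striatum, 2.54% in midbrain and 9.21% in the mean over regions. At these shares a list of 6 would hold few or no calls. Chrna6, the subunit of dopamine neurons, measured 6.65, 6.76 and 6.48 in MPTP midbrain, against 6.68, 6.69 and 6.17 in saline midbrain (difference 0.12, SE 0.17, adjusted p = 0.781). The groups overlapped. In saline mice Chrna6 was higher in midbrain than in frontal cortex by 1.67. Chrna4, the main partner of Chrnb2 in the brain, was higher there by 0.91. Since a gene could enter the test through 1 region alone, these differences are given as values, without a p.

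Of the muscarinic receptors and their signalling partners, Chrm1 and Chrm4 included, 17 of 18 were tested, and none was called in any MPTP contrast. The share called of all tested genes was at most 2.54% in a single region and 9.21% in the mean over regions. The smallest p in midbrain belonged to Plcb1, the phospholipase C driven by Chrm1, which measured 10.07, 9.68 and 9.84 in MPTP mice, against 9.66, 9.57 and 9.50 in saline mice (difference 0.29, SE 0.086, adjusted p = 0.0757). Of the genes that anchor or process cholinesterases, 8 of 9 were tested. None was called in a single region, against at most 2.54% of all tested genes. Prima1, the membrane anchor of Ache, gave -0.09 in striatum, -0.19 in midbrain and -0.02 in frontal cortex, and in saline mice it was higher in striatum than in frontal cortex by 1.36 (adjusted p = 1.43e-08). Nlgn1, a synaptic adhesion protein with a cholinesterase-like domain, had no call in any region and rose by 0.18 in the mean over regions (SE 0.049, adjusted p = 0.0211), a call lost without MPTP midbrain replicate 1 (adjusted p = 0.0514).

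**Figure D5:**
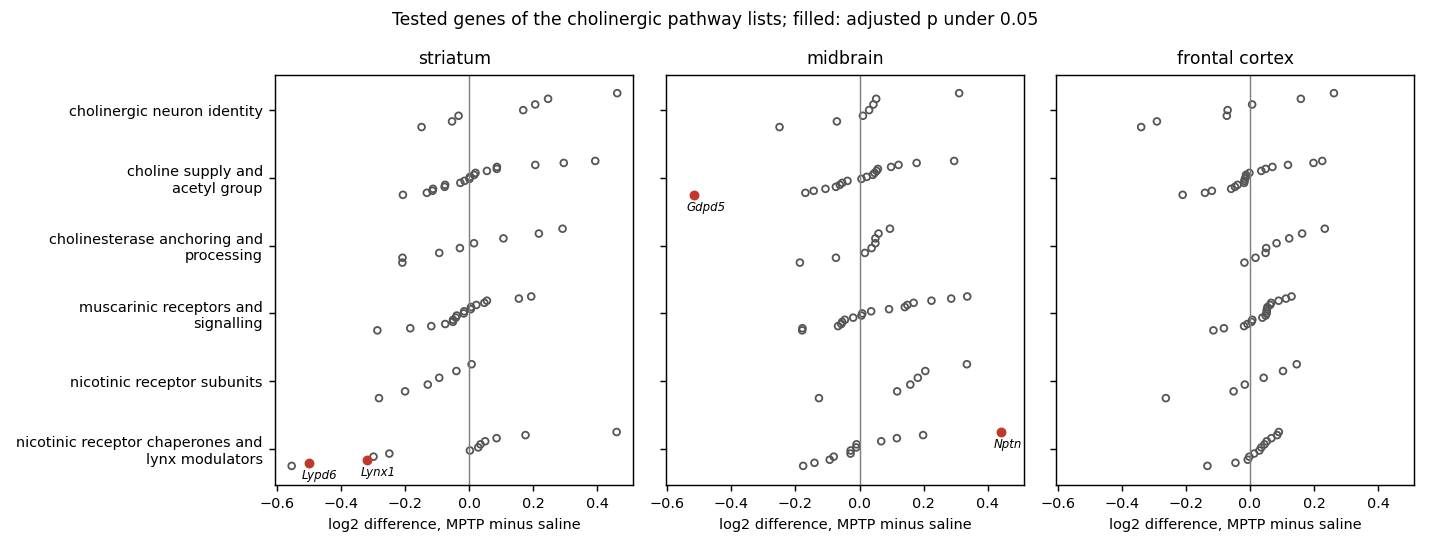
MPTP minus saline log2 differences of every tested gene of the 6 cholinergic pathway lists in striatum, midbrain and frontal cortex, 1 point per gene. Filled points have an adjusted p under 0.05: Lypd6 and Lynx1 in striatum and Gdpd5 and Nptn in midbrain.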

How the data were processed

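Total RNA of dissected striatum, midbrain and frontal cortex was hybridised to Affymetrix mouse arrays, 1 array per sample, in 6 groups of 3. The deposited values were log2 signals per probe set from RMA as run by the authors, per the submitters' processing notes; the RMA version is not given in the sources used here, and the values themselves (2.476 to 14.16) show the log base. RMA scales the arrays to each other, so a shift of all genes would not show. The deposited probe set values still differed in distribution, with array medians of 5.14 to 5.21 and interquartile ranges of 3.37 to 3.65. The number of arrays limits the precision. Genes were named through the array annotation and updated through Entrez IDs: 34958 probe sets had 1 gene, 932 several and 9211 were not listed. A gene was its probe set of highest mean.

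R 4.3.3 and limma 3.58.1 fitted 6 group means on all 18 arrays, with an intensity trend, and Benjamini-Hochberg adjustment ran over the 11741 tested genes of a contrast. The program was tested on simulated data. Probe sets were also fitted singly, and the fit without the filter gave Chat and Chrm4. Named were all 8 genes, up to 4 called genes of a pathway list and contrast or, where none was called, some of smallest p, the 3 nearest patterns, and Th and Slc6a3; predicted genes were passed over, and not every gene that the rule allows is named. Slc17a7 and the other regional values of pathway genes were chosen after their values were seen. The members and lists were chosen with earlier results of these data known. P-values measure the spread between these samples, through an estimate that the 6 groups share. Promoter windows are RefSeq sequences of GRCm38.p6.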

Additional observations from a re-analysis of the deposited data

How the results depend on the processing

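The counts of called genes depended on the processing more than the differences did. In frontal cortex 8 genes were called, against 4 after a second quantile normalization, 2 with arrays centred on their median, 1 with probe sets of a gene averaged, 0 without an intensity trend, 36 in cortical arrays alone, 0 without the 3 saline arrays of lowest interquartile range, 1 per region (chosen after seeing the data), and 0 to 1 with 1 array left out. At an unadjusted p under 0.05 cortex held 720 genes. Bche was lost from the cortical call without the filter (adjusted p = 0.0524), after the second normalization (0.0729), with median centring (0.0551), without the trend (0.0935), with averaged probe sets and without the low-range arrays, so that 0 members were called, as with any 1 array left out (0 to 0). In striatum 247 genes became 745, 134 and 162 under the second normalization, averaged probe sets and no trend, and 69 to 291 with 1 array left out. In midbrain 298 became 726, 68, 153 and, without the low-range arrays, 111, and 12 to 955 with 1 left out; the members called there were 0 with averaged probe sets, 2 without the low-range arrays (Bche and Chrm1) and 0 to 2 with 1 left out (2 without saline midbrain replicate 2). In the mean over regions 1081 genes became 2106 under the second normalization, with 2 members (Bche and Ache), 0 members with averaged probe sets, and 658 to 1581 genes and 1 to 2 members with 1 left out (2 without saline midbrain replicate 2). The difference of responses between striatum and cortex called 7 genes, 4 without the filter, 21 after the second normalization, 4 with averaged probe sets and 3 to 10 with 1 left out. That between midbrain and striatum called 8, then 22 and 7 to 14. That between midbrain and cortex called 0 by limma (584 at an unadjusted p under 0.05) and 0 to 10 with 1 left out. Saline midbrain against cortex called 5 members, and 3 to 5 with 1 left out. The sign of the Bche midbrain minus cortex difference in saline mice turned in the probe set 1421218_at (-0.013, SE 0.11) but not in 1437863_at (0.21). That of Slc44a1 turned in 1432769_at (-0.063) and 1454344_at (-0.0060). The cause was not tested.

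Same-numbered MPTP and saline arrays of a region deviated with correlations of -0.19 to 0.29, 3 of 9 over 0.1. Same-numbered arrays of different regions did so with -0.23 to 0.34, 11 of 18 over 0.1, and differently numbered ones with -0.27 to 0.30. Of 18 arrays 13 correlated best with their own number, a hint from the data and not the design. The highest value, 0.34, joined saline midbrain replicate 2 and saline frontal cortex replicate 2, both of low interquartile range. Saline striatum replicate 1, also of low range, correlated at 0.30 with saline frontal cortex replicate 2. In saline midbrain with saline frontal cortex all 3 pairs were over 0.1 (0.225, 0.342 and 0.249), and the fit with the replicate number as a block called the same 5 members there. All 3 pairs of MPTP striatum with MPTP midbrain were over 0.1 too (0.169, 0.183 and 0.117), but those groups are not compared directly. MPTP and saline arrays were taken to share only a number. With the replicate number as a fixed block, cortex called 17 genes and Bche kept its calls (adjusted p = 0.0354 in cortex and 0.00658 in midbrain); the animal as a random block had a correlation of 0.00558 and called 1061 genes in the mean over regions.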
